A study of Gallus gallus with 12 samples.

Results

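This account covers the distal end of chicken chromosome 15, from position 12000000 (the start column of the peak lists) to the last peak. Its members are all peaks of 4 lists that start there, merged into regions wherever peaks overlapped by at least 1 bp. There were 162 such regions among 127749 regions on all chromosomes. They ran over 992 kb, from 12025620 to 13017264. The locus was selected on peak list membership, because regions open in dorsal retina alone were already known to lie there. How many of its regions each tissue held is therefore a description, and no test was made of it.

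Open chromatin was profiled by omni-ATAC-seq, in which the transposase Tn5 cuts accessible DNA of isolated nuclei and inserts sequencing adapters. The 12 libraries came from wildtype hy-line chicken embryos and fall into 4 groups of 3 biological replicates: optic fissure margin (OFM) at Hamburger-Hamilton stage 34 (HH34), OFM at HH30, dorsal retina at HH34 and dorsal retina at HH30. Each replicate pooled dissected tissue of 10 embryos, of which 50000 cells were used, and the labels name no treatment. The authors called peaks jointly over the replicates of a group, so each group has 1 list and no value per replicate. Differences below thus have no replicate error to be held against, and none was tested. RNA was not measured, so the dissected tissues could not be checked against marker genes.

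The optic fissure is the ventral opening of the optic cup, and its margins meet and fuse as the eye forms. Dorsal retina lies opposite and has no fissure. The identity of the dorsal side is set by BMP signalling and by T-box transcription factors such as TBX5, which in chick represses ventral genes, while VAX and PAX2 factors mark the ventral side. ATAC-seq peaks away from gene starts often mark enhancers, and genes that control development tend to sit among many of them.

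Of 16 symbols of dorsal-ventral eye patterning that were looked up, 15 were in the RefSeq gene table and 2 were on chromosome 15, TBX3 and TBX5. TBX5 is the dorsal retinal T-box factor named above, and TBX3 is a related T-box repressor. In the order of that table TBX3 and TBX5 are direct neighbours, and they belong to the last 9 protein-coding genes of chromosome 15. RBM19, a ribosome assembly factor, and LHX5, a LIM-homeodomain transcription factor, follow them. The table is of GRCg7b, and the lists are in another build (GRCg6a, per the submitters' processing notes). No gene was therefore placed at a peak, and which region lies next to which gene was not analysed here. No base sequence of the regions is given, because no genome of that build was used here.

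Most accessible regions of the locus were open in dorsal retina, and many of them had no OFM peak. Both dorsal lists alone held 28 of the 162 regions (17.3%), where the same kind made up 1.22% of all regions. Both OFM lists alone held 2 regions (1.23%), against 2.22% of all regions. All 4 lists held 78 regions (48.1%), fewer than the 60.6% over all chromosomes. At least 1 dorsal list held 160 of the 162 regions, against 89.3% of all regions, and at least 1 OFM list held 113, against 92.4%. In such bulk tissue, fewer cells with an open site and a site less open in each cell cannot be told apart.

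Further regions were held by dorsal retina with a trace in the younger fissure margin. All lists but OFM HH34 held 15 regions (9.26%), against 1.17% of all regions. Of the other kinds with 3 lists, all but OFM HH30 held 1 region (0.617%), against 3.5% of all regions, and all but dorsal HH34 held 2 (1.23%), against 4.49%. All but dorsal HH30 held 2 (1.23%), close to the 1.06% of all regions. The dorsal HH34 list alone held 11 regions, against 3.85% of all regions, and the dorsal HH30 list alone held 10, against 2.57%. No region was held by a single OFM list, although OFM HH34 alone makes up 1.8% and OFM HH30 alone 6.7% of all regions. A count of 0 among 162 regions would allow a share of up to 1.85%, for counting error only and if regions were independent draws. Neighbouring regions of a locus chosen for its list membership are not, so nothing is inferred from this 0. The kinds that join tissues by stage were near the background, with 5 regions in both HH34 lists alone (4.79% of all regions) and 8 in both HH30 lists alone (5.69%). No region joined OFM of one stage with dorsal retina of the other alone, a kind that made up 0.345% of all regions (0.247% with OFM HH34 and 0.0986% with OFM HH30).

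Summed over stages, regions seen in dorsal retina and not in OFM came to 49 (30.2%), against 7.64% of all regions, and regions seen in OFM and not in dorsal retina came to 2 (1.23%), against 10.7%. By the number of lists, 20 regions were in exactly 3 lists (12.3%), against 10.2% of all regions. Exactly 2 lists held 43 (26.5%), against 14.3%, and exactly 1 list held 21 (13.0%), against 14.9%. The locus thus stood out in regions of 2 lists, most of them dorsal pairs.

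**Figure D1:**
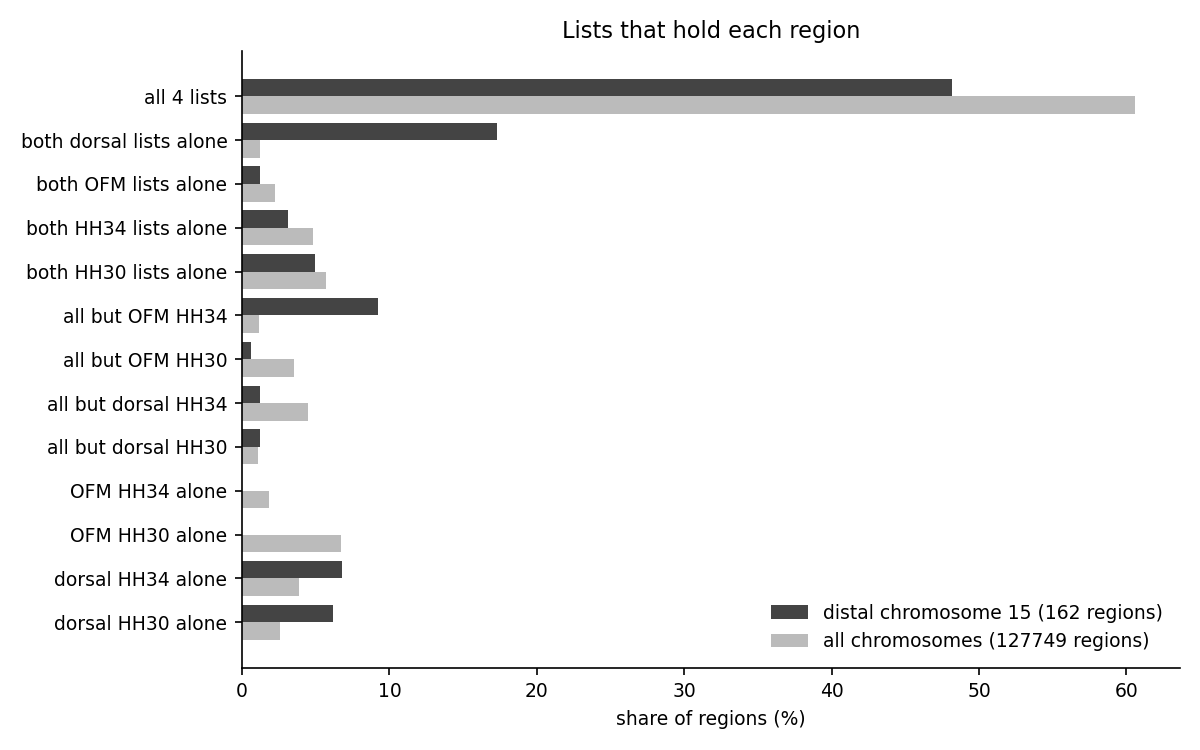
Share of regions by the lists that hold them, in percent of regions, for the 162 regions of distal chromosome 15 (dark bars) and all 127749 regions (light bars). Regions in both dorsal lists alone reached 17.3% in the locus against 1.22% in the series, and those in all lists but OFM HH34 reached 9.26% against 1.17%.

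The rest of the same chromosome had smaller shares of the following kinds of region than the locus as a whole. Below position 12000000, chromosome 15 held 2467 regions, with 31 (1.26%) of the kind held by both dorsal lists alone and 23 (0.932%) of the kind that only OFM HH34 lacked. At the border, the last region outside lay at 11976653 to 11976833 and was in all 4 lists, with ranks between 87316 and 95658. The first region inside lay at 12025620 to 12026254 and was also in all 4 lists, with ranks between 34528 and 44818. A rank here is the place of a peak in its own list by the peak caller's area score, with 1 as the highest.

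By single peaks, the locus held 96 in OFM HH34, 120 in OFM HH30, 142 in dorsal HH34 and 150 in dorsal HH30. Of the dorsal peaks, 54 of 142 at HH34 (38.0%) overlapped no OFM peak of that stage, against 8.21% of the whole dorsal list. At HH30 the dorsal count was 40 of 150 (26.7%), against 9.76%. In the other direction, 4 of 96 OFM peaks at HH34 (4.17%) overlapped no dorsal peak, against 11.3% of the list. At HH30, 4 of 120 OFM peaks (3.33%) did, against 12%. These OFM counts depend on what counts as overlap: at 50% reciprocal overlap they were 22 at HH34 (22.9%, against 16.6% of the list) and 25 at HH30 (20.8%, against 18%). The dorsal counts were then 68 at HH34 (47.9%, against 13.6%) and 55 at HH30 (36.7%, against 16.1%). With summits at most 200 bp apart, OFM had 13 unmatched peaks at HH34 (13.5%, against 15.3%) and 14 at HH30 (11.7%, against 15.8%), and dorsal retina had 59 at HH34 (41.5%, against 12.2%) and 44 at HH30 (29.3%, against 13.8%). Under these 3 rules the unmatched dorsal share exceeded that of its list by more than the OFM share did at both stages. By 1 bp overlap, none of the unmatched OFM peaks was in the upper 50% of its list, while 18 unmatched dorsal peaks at HH34 and 8 at HH30 were. Only 4 OFM peaks were unmatched at each stage, and the same share over the whole lists was not computed.

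Peaks covered 55.5 kb of the locus in OFM HH34 and 87.2 kb in dorsal HH34, a ratio of 0.636. At HH30 they covered 56.8 kb in OFM and 86.4 kb in dorsal retina, a ratio of 0.657. Over the whole lists these ratios were 1.02 at HH34 and 1.01 at HH30. Covered length depends on depth and on the caller's threshold as well as on accessibility.

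The dorsal surplus was not spread evenly. It was strongest between 12400001 and 12700000, in 3 windows of 100 kb. The borders of this stretch were chosen after the counts and rank differences per window had been seen. That middle stretch held 71 regions, of which 20 were in both dorsal lists alone, 12 in all lists but OFM HH34, 16 in a single dorsal list and 21 in all 4 lists. No region there was in both OFM lists alone. The proximal stretch, up to 12400000, held 36 regions with 7 in both dorsal lists alone. In its windows from 12200001 and 12300001, 2 of 6 and 2 of 8 regions were of this kind. In the middle window from 12400001 it was 3 of 23, so that window was not richer in them. The distal stretch, from 12700001 to the end, held 55 regions with 1 in both dorsal lists alone, and it also had both of the OFM-only regions. All 4 lists held 40 of these 55 regions, where the series had 60.6%. Dorsal HH34 alone held 2 and dorsal HH30 alone held 2 (3.85% and 2.57% of all regions), and no single OFM list held any. Most regions of the distal stretch were thus shared, and all but 1 of those in both dorsal lists alone lay inward of it.

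Covered length was lower in OFM in the proximal and middle stretches. In the proximal stretch it was 7.32 kb in OFM HH34 and 12.3 kb in dorsal HH34, a ratio of 0.595, and 9.47 kb in OFM HH30 and 12.9 kb in dorsal HH30, a ratio of 0.733. In its windows from 12200001 and 12300001 the ratios at HH34 were 0.396 and 0.425, below the 0.590 of the middle window from 12400001, though no list covered more than 2494 bp in either of these windows. In the middle stretch it was 15.1 kb in OFM HH34 and 41.8 kb in dorsal HH34, a ratio of 0.361. At HH30 it was 19.6 kb in OFM and 42.8 kb in dorsal retina, a ratio of 0.456. In the distal stretch the lengths were 33.1 kb in OFM HH34 and 33.1 kb in dorsal HH34, and 27.7 kb in OFM HH30 and 30.6 kb in dorsal HH30. There, OFM covered as much as dorsal retina at HH34.

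**Figure D2:**
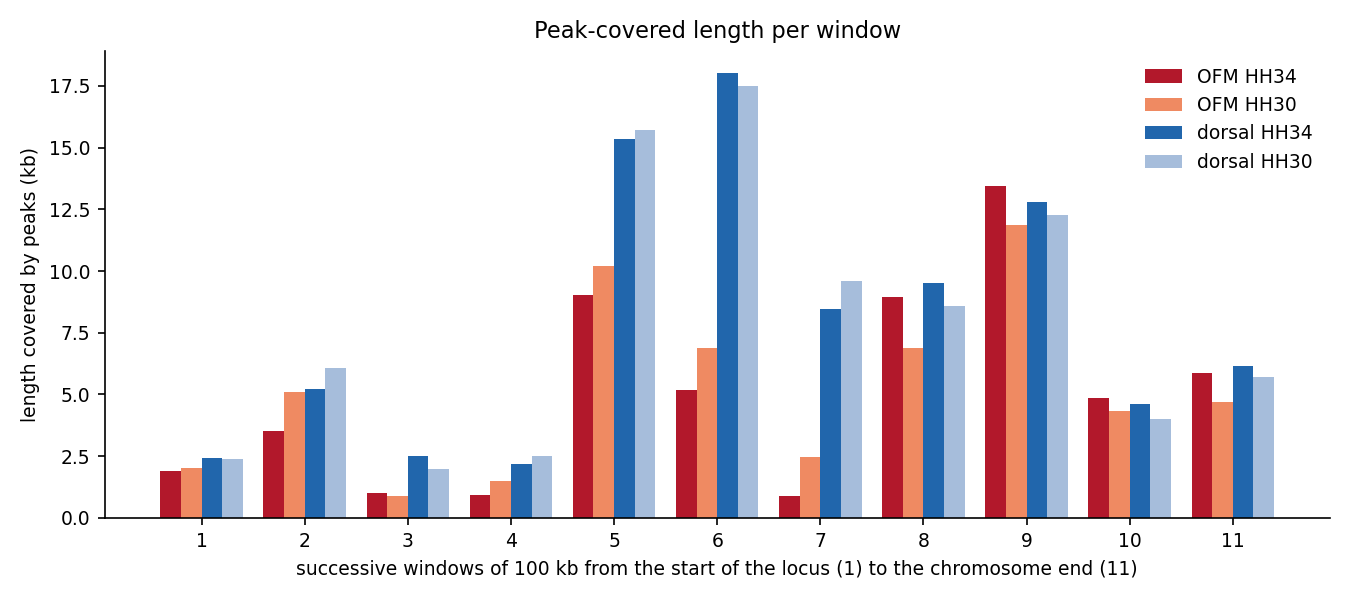
Length covered by peaks (kb) in each list, in successive windows of 100 kb from position 12000001 (window 1) to the chromosome end (window 11). Dorsal bars stand above the OFM bars at both stages in all windows but 9 and 10, and in window 7 OFM HH34 covered 870 bp where dorsal HH34 covered 8466 bp.

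The window from 12500001 to 12600000 held 12 regions in both dorsal lists alone among its 27 regions. Of 10120 windows with a region on any chromosome, 8874 held no such region and none held more than 12. The next highest window, on chromosome 10 (16200001 to 16300000), held 10. The neighbouring window of the locus, 12600001 to 12700000, held 5, and 5 windows of the genome had more. In covered length, the OFM to dorsal ratio at HH34 was 0.287 in the window from 12500001 and 0.103 in the window from 12600001. Of 6616 windows with at least 5000 bp covered in both tissues together, these had the lowest ratios, and the median was 1.02. At HH30 the ratio was 0.394 in the window from 12500001, with 17 of 7026 windows lower, and 0.256 in the window from 12600001, with 4 lower. The locus was chosen for its dorsal-only regions, so an extreme place of its windows follows from that choice and is only a description.

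**Figure D3:**
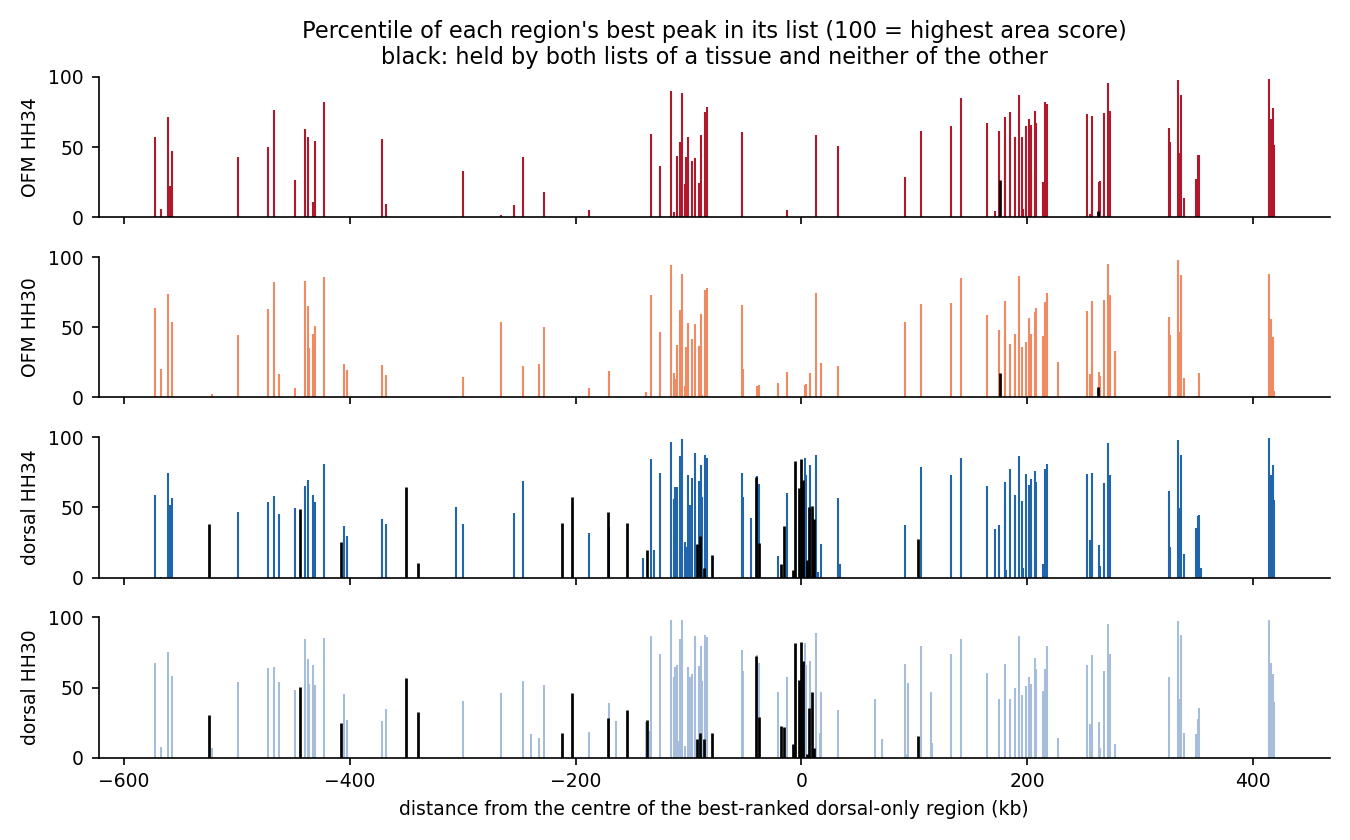
Percentile of the best peak of each region in each list (vertical axis, 100 is the highest area score) against distance in kb from the centre of the best-ranked region held by both dorsal lists alone. Black lines mark regions in both lists of 1 tissue and neither of the other, 28 in dorsal retina and 2 in OFM. They crowd around distance 0 in the dorsal tracks, where the OFM HH34 track is nearly empty.

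Of the 6 best-ranked dorsal-only regions of the locus by the lower of their dorsal ranks, 4 lay close together in 1 run. The leading region, 12597891 to 12599455, ranked 15762 in dorsal HH34 and 18699 in dorsal HH30. These were the best ranks of all 1560 dorsal-only regions of the series, and the nearest OFM peak lay 11827 bp away at HH34 and 2639 bp at HH30. The region just before it, 12596634 to 12597270, ranked 36909 in dorsal HH34 and 47645 in dorsal HH30. The one just after it, 12599787 to 12600322, ranked 31041 in dorsal HH34 and 32924 in dorsal HH30 and had the highest −log10 q at HH34 among the 28 dorsal-only regions of the locus, 13.3, with 11.9 at HH30. These −log10 q values at the summit are the authors' own. A little upstream, 12591997 to 12593201 ranked 17459 at HH34 and 18980 at HH30. All of these are in the upper 50% of both dorsal lists.

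The run lay in a stretch with no OFM HH34 peak, from 12585956 to 12611282. Over these 25.3 kb the dorsal HH34 list had 14 peaks, which covered 10208 bp or 40.3% of the stretch. Dorsal HH30 had 12 peaks there and OFM HH30 had 3. OFM HH30 peaks bounded a shorter free stretch, 12585957 to 12602094, with 5 dorsal HH30 peaks in its 16.1 kb. Longer stretches without OFM peaks occurred in the locus, such as 68.2 kb from 12230910 to 12299084 in OFM HH34, but dorsal HH34 had only 3 peaks there and dorsal HH30 had 2.

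Away from this run the strong dorsal-only regions were scattered. The region 12558170 to 12558561 ranked 28395 in dorsal HH34 and 29069 in dorsal HH30, with −log10 q of 12.2 and 12.3. Farther upstream, 12248083 to 12248848 ranked 35995 at HH34 and 46048 at HH30, and no OFM peak of either stage came closer than 17173 bp. These 2 regions and the 4 before them were the 6 of the 28 in the top 50000 of both dorsal lists, out of 24 in the whole series. In the top 30000 of both lists were 3 of the 28, out of 6 in the series.

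The other dorsal-only regions were weaker. The 28 regions had a median percentile of 38.5 in dorsal HH34 (range 5.52 to 84.5) and 28.8 in dorsal HH30 (range 3.01 to 82.4). Percentile 100 is the highest area score of a list. The 1560 dorsal-only regions of the whole series had medians of 13.7 in dorsal HH34 and 12.2 in dorsal HH30, so those of the locus stood higher in their lists. Their widths ran from 170 to 1565 bp with a median of 378 bp. Of the 28, 19 had the higher percentile at HH34 and 9 at HH30. The summits of the HH34 and HH30 peaks lay at most 50 bp apart in 23 of them. The median distance to the nearest OFM peak was 6657 bp at HH34 and 2176 bp at HH30, and 4 and 10 regions had one within 1 kb. These stage, summit and distance counts were not computed for the dorsal-only regions of the series, so they only describe the locus.

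The next 4 by rank were 12154381 to 12154787 (51564 in dorsal HH34 and 52967 in dorsal HH30), 12607967 to 12608629 (49383 and 56362), 12394907 to 12395637 (42933 and 56879) and 12605159 to 12605498 (50168 and 68797). In the proximal stretch the remaining regions were 12073782 to 12074111, 12190528 to 12190738, 12259298 to 12259526 and 12386545 to 12386898, at percentiles of 10.2 to 38.7 in dorsal HH34 and 17.4 to 32.5 in dorsal HH30. From 12400001 to 12500000 lay 12426908 to 12427491, 12444100 to 12444463 and 12462064 to 12462354, at 20.0 to 46.8 in dorsal HH34 and 26.8 to 33.8 in dorsal HH30. All of these but 12154381 to 12154787 at HH30 and 12607967 to 12608629, 12394907 to 12395637 and 12605159 to 12605498 at HH34 stood below percentile 50.

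The window from 12500001 to 12600000 held the densest group of weak regions next to the strong run. These were 12506300 to 12506520, 12508450 to 12508879, 12512450 to 12512630, 12519670 to 12520027, 12561281 to 12561450, 12580582 to 12580911, 12583087 to 12583484 and 12591468 to 12591872, at percentiles of 5.52 to 36.4 in dorsal HH34 and 9.98 to 29.2 in dorsal HH30. The sole dorsal-only region of the distal stretch, 12701619 to 12701938, stood at 27.7 in dorsal HH34 and 15.9 in dorsal HH30, close to the border of the middle stretch.

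Several of these weak regions had values near the end of a list. The one with the lowest rank in dorsal HH30, 12603832 to 12604009, stood at 88373 in dorsal HH34 and 102976 in dorsal HH30. The region 12609493 to 12610365 stood at 58942 at HH34 and 98836 at HH30, and its dorsal peak was 873 bp wide at HH34 against 322 bp at HH30. Whether OFM had signal there under its threshold cannot be read from the lists.

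The 15 regions held by all lists but OFM HH34 were weak in OFM HH30 as well. In dorsal retina they had a median percentile of 57.3 at HH34 (range 15.2 to 85.0) and 57.2 at HH30 (range 27.1 to 81.9). In OFM HH30 their median percentile was 12.9 (range 1.17 to 24.2), and all 15 lay in the lowest 25% of that list. Over the whole series 71.3% of such regions did. The widest example, 12605641 to 12607239, had a dorsal HH34 peak of 1599 bp ranking 19776 and a dorsal HH30 peak ranking 32896, while its OFM HH30 peak was 330 bp wide and ranked 89630. Another, 12601216 to 12602466, ranked 15266 in dorsal HH34 and 19193 in dorsal HH30, against 98950 in OFM HH30. Both lie in the stretch without OFM HH34 peaks described above. The 2 with the best worst rank were 12616018 to 12616429 and 12193970 to 12194168, with OFM HH30 ranks of 82396 and 82814.

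The 78 regions in all 4 lists show whether sites open in both tissues also ranked differently. Because scores have no common scale, percentiles within a list were compared. The differences OFM minus dorsal, taken region by region, had a median of −2.59 points at HH34, with quartiles of −13.9 and 0.260. Ranks by −log10 p, by area score over width and in lists of equal length gave medians of −4.51, −5.34 and −3.91. At HH30 the median was −5.99 points, with quartiles of −13.7 and −0.617. The 77405 such regions of the series had medians of 0.627 and 0.0288. OFM was lower at both stages in 50 of the 78 regions and higher at both in 12, where the series had 32.1% and 42.4%.

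Larger shifts were mostly in 1 direction. OFM was lower by at least 10 points at both stages in 21 of 78 regions (26.9%), against 3.82% of all 4-list regions. It was higher by as much in 2 (2.56%), against 5.97%. In the middle stretch all 21 shared regions ranked lower in OFM at both stages, with median differences of −21.7 points at HH34 and −13.8 at HH30, and 16 of them were past 10 points. In the proximal stretch OFM was lower in 12 of 17 regions at HH34 and in 14 at HH30, with medians of −3.73 and −3.51, and 4 were past 10 points at both stages. In the distal stretch OFM was lower in 21 and higher in 19 of 40 regions at HH34, with a median of −0.372, and lower in 27 and higher in 13 at HH30, with a median of −4.03. Over the series OFM was lower in 40.5% of 4-list regions at HH34 and in 49.2% at HH30. Each stretch, the distal one included, thus had a larger share of regions lower in OFM than the series. The borders of the middle stretch were chosen with the rank differences per window already seen. That its shared regions ranked lower in OFM is therefore a description, and no support for the dorsal-only counts there.

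**Figure D4:**
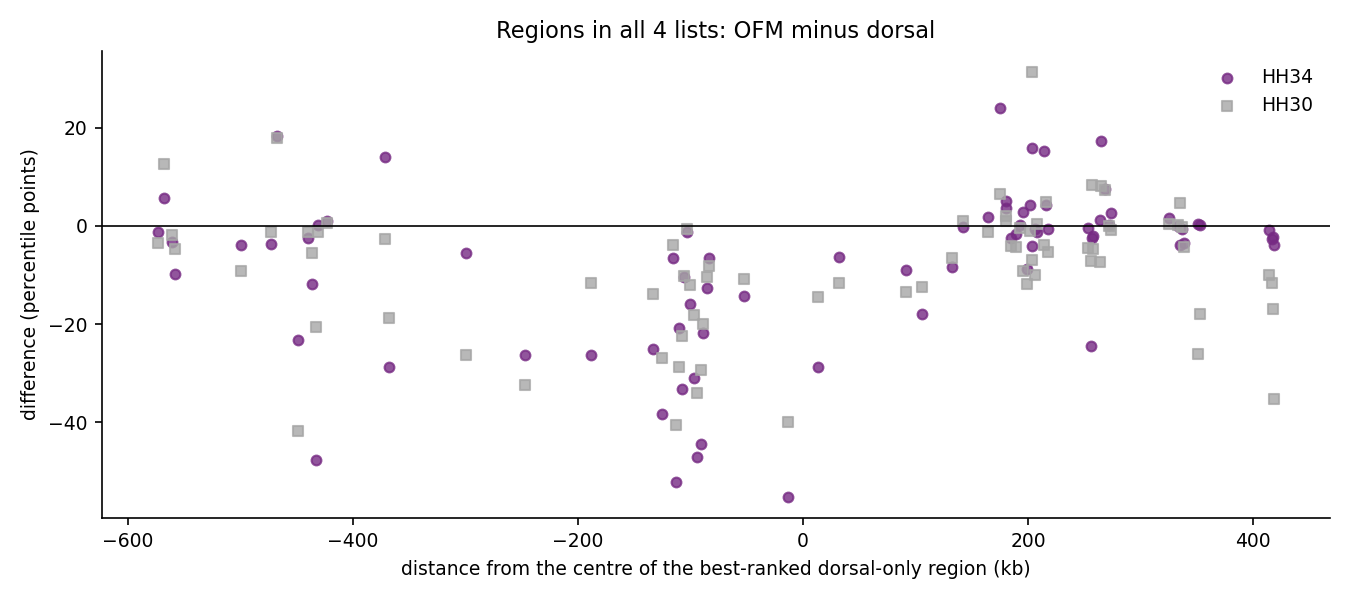
Difference in percentile, OFM minus dorsal (percentile points), for the 78 regions in all 4 lists at HH34 (circles) and HH30 (squares), against distance in kb from the centre of the best-ranked dorsal-only region. In the middle stretch all points lie below 0, down to −55.1 at HH34 and −40.5 at HH30, while in the distal stretch they lie on both sides at each stage, except that the last 4 regions all lie below 0.

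The most shifted shared region, 12585351 to 12586003, stood at percentile 5.02 in OFM HH34, 17.9 in OFM HH30, 60.1 in dorsal HH34 and 57.8 in dorsal HH30. It bounds the OFM-free stretch described above, and its OFM peak was 139 bp wide at HH34 where the dorsal peak was 653 bp. The region 12485390 to 12485950 stood at 3.65 and 17.1 in OFM HH34 and OFM HH30, against 55.7 and 57.7 in dorsal HH34 and dorsal HH30. A much wider region, 12503141 to 12505153, stood at 41.9 in OFM HH34 and 52.4 in OFM HH30, against 88.8 in dorsal HH34 and 86.5 in dorsal HH30. In 12585351 to 12586003 and 12485390 to 12485950 a weak OFM peak lay at the place of a stronger dorsal one. In 12503141 to 12505153 each OFM list held 2 peaks, where each dorsal list held 1. The OFM peaks covered 1412 bp at HH34 and 1198 bp at HH30. Only the better-ranked of them was compared, and how far this set the difference was not tested. The next were 12507392 to 12508086, with differences of −44.4 and −29.2 points, and 12166062 to 12166564, with −47.7 and −20.6, at HH34 and HH30.

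Fewer shared regions went the other way. The region 12131483 to 12132125 ranked 24530 in OFM HH34 and 19202 in OFM HH30, against 42212 in dorsal HH34 and 37781 in dorsal HH30. Its −log10 q was 13.4 in OFM HH34 and 17.7 in OFM HH30, against 6.94 in dorsal HH34 and 7.84 in dorsal HH30. This was the strongest site of the locus with a higher rank in OFM at both stages by over 10 points. The other, 12801600 to 12801801, was 202 bp wide and differed by 15.9 points at HH34 and 31.3 at HH30. Differences for 12773151 to 12773867, 12863225 to 12863414 and 12031419 to 12031553 were positive at both stages and past 10 points at only 1 of them. The 2 regions held by both OFM lists alone were weak: 12774698 to 12775068 ranked 77541 in OFM HH34 and 89823 in OFM HH30, and 12860855 to 12861068 ranked 100597 and 100222.

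The sites named first here were picked from the 78 regions in all 4 lists, by the best worst rank over the lists. The region 12931034 to 12932909 ranked 2222 in OFM HH34, 2541 in OFM HH30, 2151 in dorsal HH34 and 2571 in dorsal HH30. The region 12869317 to 12871536 ranked 4356 in OFM HH34, 5076 in OFM HH30, 4402 in dorsal HH34 and 4829 in dorsal HH30. These differ little between tissues, which such a choice favours. In dorsal HH34 alone, 13010580 to 13014573 (rank 666) and 12491669 to 12494890 (rank 1236) stood higher than either, and both ranked lower in OFM at each stage. In contrast, 12481964 to 12484563, in the middle stretch, ranked 10253 and 5915 in OFM HH34 and OFM HH30, against 3192 and 1744 in dorsal HH34 and dorsal HH30.

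The broad region 12491669 to 12494890 also ranked lower in OFM, and its OFM peaks were split. In dorsal retina it was a single peak, 3222 bp wide at HH34 and 3127 bp at HH30, ranking 1236 and 1906. In OFM it was split into 2 peaks covering 1404 bp at HH34 and 3 peaks covering 2117 bp at HH30, ranking 12249 and 13114. The summit lay at 12494251 in both OFM lists and at 12494077 in both dorsal lists. The dorsal lists thus joined what the OFM lists held as separate, smaller peaks. Only the best-ranked OFM peak gave these ranks, and how far the splitting set the difference was not tested. Most shared regions were not split. Of the 78, 68 held 1 peak in each list, with median differences OFM minus dorsal of −3.01 at HH34 and −4.92 at HH30.

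Over all 78 shared regions the dorsal peaks together covered more than the OFM peaks in 48 at HH34 (61.5%) and in 60 at HH30 (76.9%). Over the series these shares were 40.8% and 45.8%. Median covered length per region was 464 bp in OFM HH34 and 551 bp in dorsal HH34, and 489 bp in OFM HH30 and 559 bp in dorsal HH30. Taken region by region the difference was smaller. The median ratio OFM to dorsal was 0.972 at HH34 and 0.939 at HH30, against 1.01 and 1.00 over the series. Summits lay at most 50 bp apart between OFM and dorsal retina in 65 regions at HH34 (83.3%) and 69 at HH30 (88.5%). The series had 91.9% and 92.3%, so summits this close were somewhat less common in the locus.

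The stage comparison gave a different map. The median of the differences HH34 minus HH30, taken region by region, was 0.702 points in OFM and 1.25 points in dorsal retina. In the series it was −0.602 in OFM and −1.36 in dorsal retina. With exactly 1 peak of each list in a region, the OFM median was 0.0708, and by area score over width the dorsal median was 2.78. At least 10 points higher at HH34 in both tissues were 11 of the 78 regions (14.1%), against 8.17% of all 4-list regions. At least 10 points lower were 4 (5.13%), against 11.8%. Of the 11, 7 lay in the distal stretch, which held 40 of the 78 regions. There, 31 of 40 regions ranked higher at HH34 in OFM and 31 in dorsal retina. Over all 4-list regions of the series, 41.9% did in OFM and 36.8% in dorsal retina. The other stretches differed. In the proximal stretch 5 of 17 regions ranked higher at HH34 in OFM and 5 in dorsal retina. In the middle stretch 6 of 21 did in OFM and 13 in dorsal retina. Some regions of the distal stretch held more peaks at HH30 than at HH34, and only the best-ranked peak was compared.

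**Figure D5:**
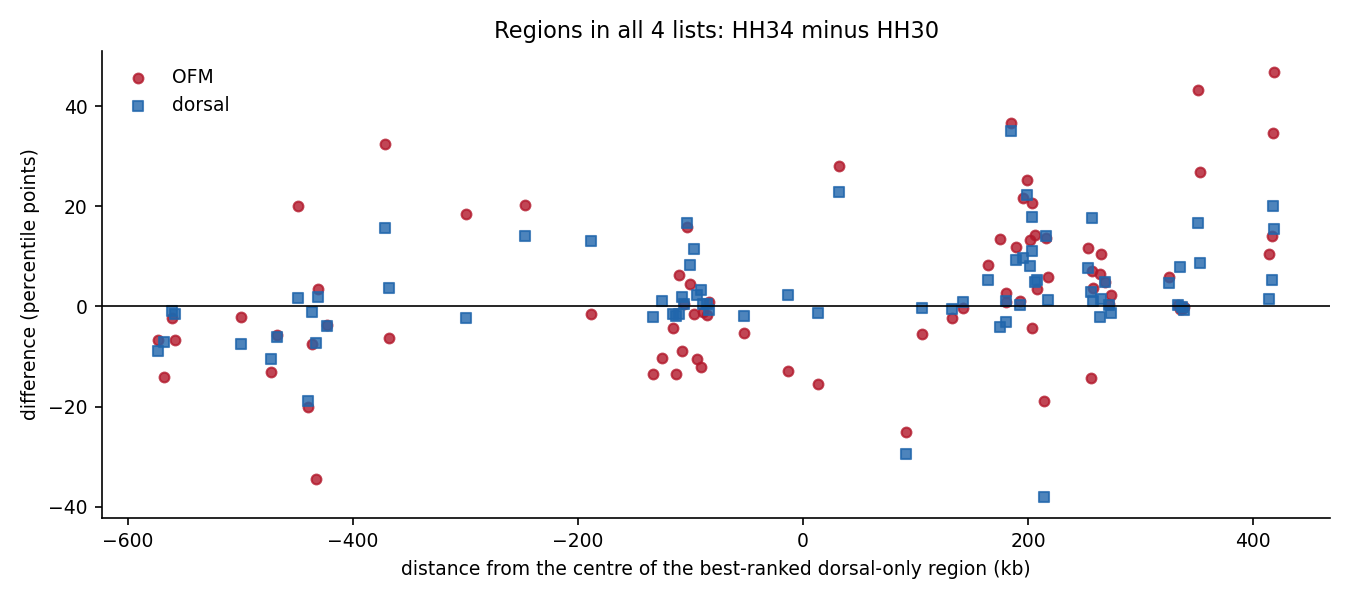
Difference in percentile, HH34 minus HH30 (percentile points), for the 78 regions in all 4 lists in OFM (circles) and dorsal retina (squares), against distance in kb from the centre of the best-ranked dorsal-only region. In the distal stretch 31 of 40 points of each tissue lie above 0, with the highest at 46.8 in OFM and 35.0 in dorsal retina. In the proximal stretch 5 of 17 points of each tissue lie above 0, and in the middle stretch 6 of 21 in OFM and 13 in dorsal retina. Over all 4-list regions of the series, 41.9% lie above 0 in OFM and 36.8% in dorsal retina.

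Large stage differences were seen at single regions, which were picked for them after the values had been seen. The region 12782972 to 12783984 stood at percentile 74.7 in OFM HH34 and 38.0 in OFM HH30, and at 77.2 in dorsal HH34 and 42.2 in dorsal HH30. It held 1 peak in each HH34 list and 2 in each HH30 list. The last region of the chromosome, 13016782 to 13017264, stood at 51.5 in OFM HH34 and 4.73 in OFM HH30, and at 55.4 in dorsal HH34 and 39.9 in dorsal HH30. Among the strongest shared sites of the locus, 13010580 to 13014573 also ranked higher at HH34, with 1575 in OFM HH34 and 13030 in OFM HH30, and 666 in dorsal HH34 and 2218 in dorsal HH30. This region held 3 peaks in OFM HH34, 5 in OFM HH30, 1 in dorsal HH34 and 3 in dorsal HH30. Only the best-ranked was compared, and how far the splitting set the difference was not tested. A lower percentile at HH34 was seen at 12812465 to 12812879, with 24.8 in OFM HH34 and 43.6 in OFM HH30, and 9.58 in dorsal HH34 and 47.5 in dorsal HH30. It was also seen at 12690295 to 12690915, with 28.5 in OFM HH34 and 53.5 in OFM HH30, and 37.4 in dorsal HH34 and 67.0 in dorsal HH30.

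On the dorsal side, fewer peaks lacked a counterpart at the other stage than in the other tissue. Of the dorsal HH34 peaks, 18 of 142 (12.7%) had no HH30 counterpart, against 12.6% of the list. Of the dorsal HH30 peaks, 20 of 150 (13.3%) had none at HH34, against 16.3%. In OFM, 6 of 96 HH34 peaks (6.25%) had none at HH30, against 13.1%, and 24 of 120 HH30 peaks (20.0%) had none at HH34, against 16.3%. Dorsal shares at HH34 were thus close to the background, while in OFM the counts were uneven. Among the OFM HH30 peaks without one at HH34 are those of the 15 regions that only OFM HH34 lacked.

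Regions bound to 1 stage were of middle to low rank. The best of those in both HH34 lists alone, 12039197 to 12039591, ranked 81948 in OFM HH34 and 48864 in dorsal HH34. It was followed by 12948800 to 12948921 and 12343941 to 12344260. The best of those in both HH30 lists alone, 12162895 to 12163264, ranked 70477 in OFM HH30 and 50261 in dorsal HH30, and was followed by 12825691 to 12825873 and 12366029 to 12366235. Among the 21 regions of a single dorsal list, 12292778 to 12293304 (dorsal HH34, rank 50747) and 12692625 to 12693198 (dorsal HH30, rank 49842) ranked highest, and 12553574 to 12553998 and 12712771 to 12713559 came next. The 3-list regions without dorsal HH34 were 12370227 to 12370506 and 12332769 to 12333201, those without dorsal HH30 were 12924744 to 12925284 and 12496482 to 12496707, and the one without OFM HH30 was 12947711 to 12947875.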

How the data were processed

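Per the submitters' processing notes, reads were handled with Trim Galore, cutadapt 1.16, FastQC, Bowtie2 2.3.4.3, SAMtools 1.6, Genrich 0.6 and deepTools 3.5.0, on GRCg6a (galGal6). Settings, and whether Tn5 positions were shifted, are not given in the sources used here. Per the labels, each sample had at least 189 M reads, and peaks were called jointly for the 3 samples in each group. The totals of single libraries are not used here.

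The 4 deposited lists hold, per peak, an area score from Genrich (unit score, scale not recorded), a second score that restates it up to a limit, and summit values of −log10 p and −log10 q. The authors made these values, and none was recomputed. Their meaning was read from the column order and the values. The area score was used only to rank peaks within a list. Peak positions were deposited as starts and ends, and are printed counted from 1.

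Peaks of all chromosomes were ranked and merged with Python 3.11.15 and pandas 2.3.3, and members were taken from the result. Where a region held several peaks of a list, the best-ranked counted. Merging and ranking were tested on simulated data. Named regions were all those in 2 lists of 1 tissue alone, the 5 best-ranked 4-list regions, the 5 most shifted between tissues each way, and the best-ranked 1 to 3 of other kinds. The locus, the lists of symbols, the limits of 10 points and 5000 bp and the stretches were chosen with earlier results of these data known. Motifs and base composition had been planned and were not run, because no genome of GRCg6a was used here. Alternatives tried were other overlaps, summit distances, score and q limits, equal list lengths, other ranks and other windows.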

Additional observations from a re-analysis of the deposited data

How the results depend on the processing

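Medians of percentile differences kept their sign under all 5 alternatives tried for them: ranks by −log10 p, by area score over width or within chromosome 15, regions with 1 peak in each list, and lists shortened to equal length. They ran from −5.34 to −2.59 (OFM minus dorsal, HH34), −6.71 to −4.92 (OFM minus dorsal, HH30), 0.0708 to 1.69 (HH34 minus HH30, OFM) and 1.06 to 2.78 (HH34 minus HH30, dorsal retina), so several moved by over 1.5 times. Equal length and joining across gaps of up to 100 bp moved no count by over 1.5 times, nor did windows of 50 kb or 200 kb. Under the alternative settings, whole-list shares were computed only for peaks unmatched in the other tissue, by reciprocal overlap and by summit distance. Those shares are given above. The other counts below have no background beside them and show only how the locus counts moved with the setting.

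Reciprocal overlap of 50% moved 8 of 16 counts, to 8 regions in both OFM lists alone, 8 in both HH34 lists alone and 16 in both HH30 lists alone. Peaks with no counterpart became 22 in OFM HH34 and 25 in OFM HH30 against dorsal retina, and 21 in OFM HH34, 45 in OFM HH30 and 34 in dorsal HH30 against the other stage. Summits at most 200 bp apart gave 7 regions in both OFM lists alone, and 13, 14 and 35 unmatched peaks in OFM HH34 and OFM HH30 against dorsal retina and in dorsal HH30 against HH34.

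With −log10 q of at least 5, there was 1 region in both HH34 lists alone, 4 in both HH30 lists alone and 5 in all lists but OFM HH34. Unmatched were 7 OFM HH30 peaks against dorsal retina, 14 against OFM HH34, and 9 dorsal HH30 peaks against dorsal HH34. The upper 50% of each list left 88 regions by construction, with 40 in all 4 lists, 2 in both HH30 lists alone, 2 in all but OFM HH34 and 0 in both OFM lists alone. Unmatched were then 29 dorsal HH34 peaks against OFM, 1 OFM HH30 peak against dorsal retina, and 11 OFM HH34, 6 OFM HH30, 9 dorsal HH34 and 7 dorsal HH30 peaks against the other stage.

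The upper 50% with the other lists in full, which removes weak peaks by construction, moved all 16 counts. It left 47 regions, with 40 in all 4 lists, 6 in both dorsal lists alone (at most 4 in a window) and 0 in each of the other kinds followed. Unmatched were 18 dorsal HH34 and 8 dorsal HH30 peaks against OFM, 0 OFM peaks at each stage against dorsal retina, and 1 dorsal HH34, 3 dorsal HH30 and 0 OFM peaks of each stage against the other stage. The dorsal-only count exceeded the OFM-only count in every setting in which both were counted. The locus was chosen for its dorsal-only regions, so this is a description and no support for them. For the other moved counts the cause was not tested.

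No paired analysis was possible because each group has 1 joint list and no values of single replicates. For that reason no replicate was left out in turn either. The depth of single libraries was not used, so how far it sets which weak peaks are missing from a list was not tested.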
